A study of Mus musculus with 20 samples.

Results

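In the 6 libraries used here, 137 of 35621 cells carried the RNA of genes otherwise read at the 2-cell stage of the mouse embryo. Of those 137 cells, 130 came from a single library. A cell was counted as 2-cell-like when it had at least 500 genes detected and at least 5 unique molecular identifiers (UMIs, each standing for 1 captured RNA molecule) summed over the Zscan4 genes, Tcstv1, Tcstv3, Zfp352 and Usp17la, together called the rule genes below. The cells compared with them, the comparison cells, came from the same libraries and had no UMI of any rule gene. They also had fewer than 5 UMIs summed over the collagen genes Col1a1, Col1a2 and Col3a1, a cut aimed at fibroblast feeder cells. There were 33060 comparison cells, of which 3795 were in the library that held most of the 2-cell-like cells.

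The study followed 2 conversions by droplet single-cell RNA-seq in 20 libraries, 2 to a group: extraembryonic endoderm (XEN) stem cells reprogrammed to induced pluripotent stem cells (XEN-iPS), and embryonic stem (ES) cells turned into induced XEN cells (iXEN). Across all libraries, 113288 of 134279 deposited cells had at least 500 genes. The replicates of a group were technical duplicates according to the study's methods, so that any spread between them may be technical. The 6 libraries used here were ES (before induction), XEN-iPS, and day 28 of the XEN conversion. Day 28 was not a purely pluripotent culture. In its replicate 2, 69.8% of the comparison cells had a UMI of the endoderm gene Gata6.

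The XEN-iPS and day 28 cells descended from the single XEN line 3F-4, in which all 3 alleles are homozygous. These are Col1A1 TetO-OKSmCh, a doxycycline-driven cassette of the reprogramming factors with mCherry, then R26 M2rtTA, the reverse transactivator that doxycycline switches on, and Oct4-GFP Tg, a reporter of Oct4. Day 28 cells were still under doxycycline on mouse embryonic fibroblast (MEF) feeders, in serum with LIF, ascorbic acid and a GSK3β inhibitor. From these cells, 4 populations sorted by the surface antigen SSEA-1 and by Oct4-GFP were recombined in roughly equal parts. Their shares are thus not those of the culture. XEN-iPS cells had been sorted for SSEA-1 and Oct4-GFP and against PDGFRα, then grown without doxycycline on feeders in serum with LIF for 7 days. The ES line was iGata4-Gata6-Venus, heterozygous for Col1A1 TetO-Gata4 (doxycycline-driven Gata4), for R26 M2rtTA and for Gata6 H2B-Venus (a nuclear reporter of Gata6), grown in serum with LIF and sampled at 0 hours of induction. The study's methods describe the cells of the XEN-iPS libraries as nascent, taken after this sorting and replating. Its materials also name 2 XEN-iPS lines made from 3F-4, and neither the methods nor the labels name a line for a library. Line, culture and library cannot be told apart.

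Cultures of mouse ES cells are known to hold, at any moment, a rare and passing population that transcribes genes of the 2-cell embryo, the stage at which the embryo's own genome is first read. The transcription factor Dux, listed here as Duxf3, switches on many of these genes, Dppa2 and Dppa4 act upstream of it, and the Zscan4 proteins are tied to the upkeep of telomeres. Many of the other genes of the state have no known role and sit in clusters of near-identical copies, often driven by endogenous retroviral elements of the MERVL family. Chromatin repressors such as the histone methyltransferase Ehmt2 and the Lin28a and nucleolin (Ncl) proteins are known to hold the state back. OCT4, SOX2 and NANOG proteins are known to be low in these cells.

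The 2-cell-like cells were not spread evenly over the libraries. XEN-iPS replicate 1 held 130 in 4259 cells, 3.05% with an exact binomial 95% interval of 2.56 to 3.61%. XEN-iPS replicate 2, which bears the same labels, held 4 in 6825 cells, 0.0586% (0.0160 to 0.150%). The intervals of these replicates, technical duplicates by the study's methods, were far apart. Day 28 replicate 2 held 2 in 1983 cells, 0.101% (0.0122 to 0.364%), and day 28 replicate 1 held 0 in 5639 cells, which allows a share of up to 0.0532%. ES replicate 1 held 1 in 7669 cells, 0.0130% (0.000330 to 0.0726%), and ES replicate 2 held 0 in 9246 cells, which allows up to 0.0324%. Outside XEN-iPS replicate 1 the intervals of the libraries overlapped, and XEN-iPS replicate 2 lay within the range of the day 28 libraries, so the shares gave no order of the 3 conditions. A permutation test of 2 libraries against 2 cannot reach a p under 0.05, and no test of the shares was run. The intervals and limits cover counting error only.

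**Figure D1:**
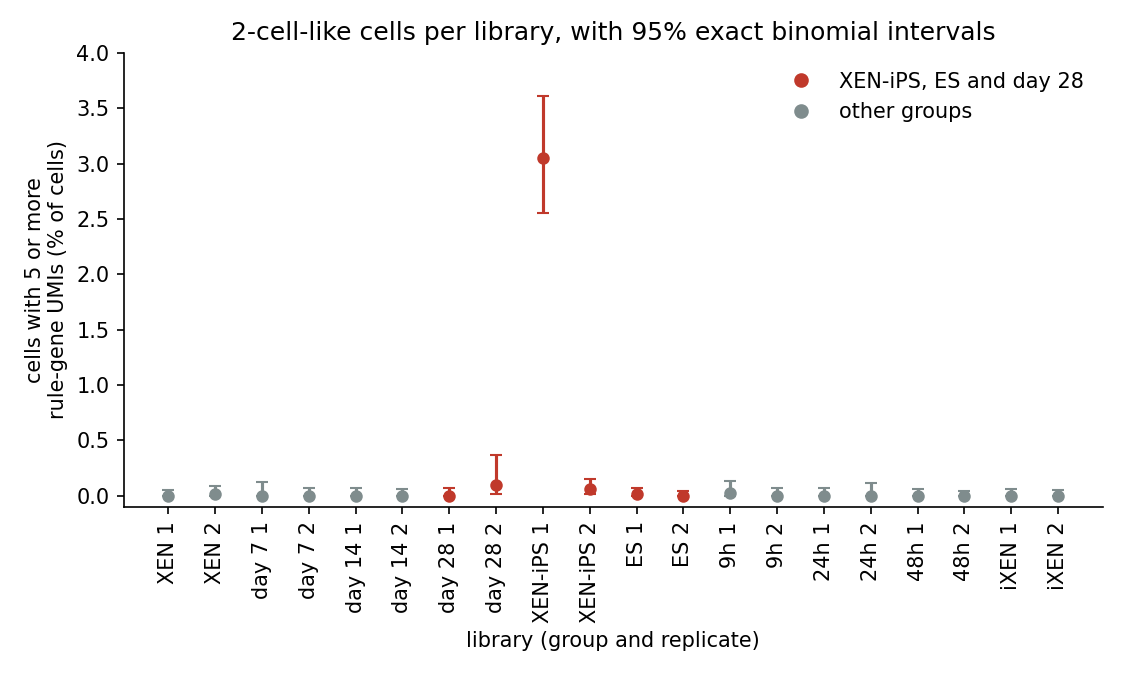
Share of cells with 5 or more rule-gene UMIs (percent of cells with at least 500 genes) in each of the 20 libraries, with exact binomial 95% intervals; libraries of the 3 conditions used here are red. XEN-iPS replicate 1 stands alone at 3.05%, and every other library is at 0.101% or below.

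The same rule applied to the other 14 libraries found 2 cells in 77667, and 34 more had 1 to 4 rule-gene UMIs. The XEN and iXEN libraries, which should lack this RNA, had any rule-gene UMI in 0 to 0.0507% of cells, against 7.89% in XEN-iPS replicate 1. The comparison cells of XEN-iPS replicate 1 had a median of 16725 UMIs and the cells of the XEN and iXEN libraries medians of 7393 to 18978. Free RNA shed by the 2-cell-like cells of XEN-iPS replicate 1 could add single UMIs to its other cells, which these libraries cannot measure, and the threshold of 5 UMIs left 3.05%.

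The XEN-iPS replicates differed in other ways as well. XEN-iPS replicate 2 held 1943 cells with 5 or more collagen UMIs and replicate 1 held 131. Y-linked genes summed to 56.8 CPM (UMIs of a gene scaled to 1e6 UMIs in all) in the comparison cells of replicate 2 and to 3.37 CPM in those of replicate 1. Fibroblast RNA remained among these comparison cells, as 22.2% of them in replicate 2 and 3.06% in replicate 1 had a Col1a1 UMI. The part of feeder RNA in the Y-linked sums was not tested. The replicates were sequenced under different project numbers. The part of any of these in the share of 2-cell-like cells was not tested. Any 2 of the 20 libraries shared at most 109 cell barcodes, 0.399 to 1.62% of the smaller library, and of the 130 2-cell-like barcodes of XEN-iPS replicate 1, between 0 and 3 recurred in each of the other 5 libraries.

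All measurements of RNA levels below therefore come from XEN-iPS replicate 1 unless another library is named. A fit over the 4 libraries with any 2-cell-like cell made false calls on simulated counts and was not used, so no test across samples is given, and the only check in other libraries is the 7 cells described at the end. Each fold is a ratio of CPM with an exact 95% interval of the ratio of 2 counts, which covers counting error only and not the spread between cells. The 130 2-cell-like cells summed to 1573344 UMIs and the 3795 comparison cells to 65340583. The 2-cell-like cells were shallower, with a median of 10195 UMIs and 2327 genes against 16725 UMIs and 3439 genes.

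The rule genes themselves are a description, since they chose the cells. Zscan4c had 1429 UMIs (908 CPM) and was seen in 95.4% of the 2-cell-like cells, from 0 to 57 UMIs per cell with a median of 7. Zscan4d had 1314 UMIs (835 CPM) and was seen in 87.7% of them, with a median of 6 and a highest value of 82. Zscan4-ps2, named as a pseudogene copy, had 1158 UMIs (736 CPM), with a median of 5.5 and a highest value of 64. These 3 copies and Zscan4-ps3, with 611 UMIs, made up most of the 5983 rule-gene UMIs. Zscan4-ps1 had 306 UMIs, Zscan4f 92, Zscan4e 62 and Zscan4b 53. Tcstv3, a gene of the 2-cell-stage variable group, was less widespread, with 703 UMIs in 42.3% of the cells and up to 98 in 1 cell. Usp17la, a deubiquitinating enzyme, had 150 UMIs in 38.5% of the cells. Zfp352, a zinc finger gene, had 85 UMIs in 24.6% of the cells, and Tcstv1 had 20 UMIs in 10.8%. Zscan4c and Zscan4d thus marked nearly all of these cells, while Tcstv3, Usp17la and Zfp352 each marked a minority. Only 2 of the 130 cells had neither Zscan4c nor Zscan4d.

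**Figure D2:**
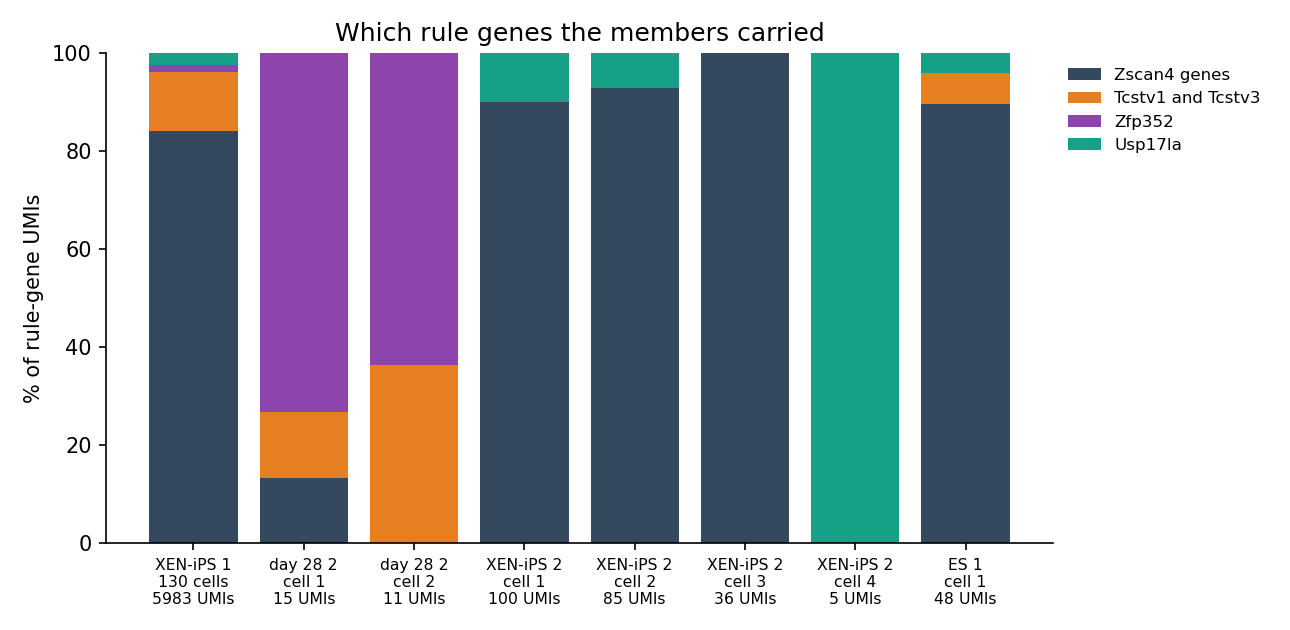
Percent of rule-gene UMIs given by the Zscan4 genes, by Tcstv1 and Tcstv3, by Zfp352 and by Usp17la in the 130 2-cell-like cells of XEN-iPS replicate 1 together and in each of the 7 cells of the other libraries. Zscan4 genes gave most of the UMIs in XEN-iPS and ES except for the XEN-iPS replicate 2 cell with Usp17la alone, and Zfp352 gave most in the 2 cells of day 28.

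How the reads of these copies were divided is uncertain. Over the last 300 bases of the longest transcript, where a 3′ library reads, pairs of the 8 Zscan4 genes were 56.7 to 98.7% identical, and Zscan4c, Zscan4d, Zscan4-ps2 and Zscan4-ps3 were 95.3 to 98.7% identical to each other. A UMI given to 1 of these 4 may come from another, and their sum is firmer than any single value. The Zscan4 genes lie together on chromosome 7, from base 10900740 to 11614112 of GRCm38. Tcstv1 (chr13:119893388-119894785, minus strand) and Tcstv3 (chr13:120316878-120318178, plus strand) lie on chromosome 13 and Zfp352 (chr4:90218820-90225702, plus strand) on chromosome 4.

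The bases just upstream of Zscan4 genes are shown because these stretches are much alike. They were taken from RefSeq (GRCm38.p6), which gave a promoter for 6 of the 12 rule genes. Capitals mark an 11-base match to a pattern of TGATT and ATCA with any 2 bases between them, here on the reverse strand. The first sequence, of Zscan4c (chr7:11005495-11005744, plus strand), runs over the 250 bases up to the start, and the others are the matching stretch of Zscan4b (chr7:10905101-10905171, minus strand), Zscan4d (chr7:11166233-11166303, minus strand) and Zscan4f (chr7:11397794-11397864, plus strand).
Zscan4c: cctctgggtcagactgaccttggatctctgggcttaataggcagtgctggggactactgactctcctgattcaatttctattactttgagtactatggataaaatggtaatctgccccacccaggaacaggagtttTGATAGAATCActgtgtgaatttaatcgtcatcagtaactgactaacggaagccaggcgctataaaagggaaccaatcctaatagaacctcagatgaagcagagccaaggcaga
Zscan4b: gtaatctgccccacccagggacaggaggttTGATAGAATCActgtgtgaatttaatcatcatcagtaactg
Zscan4d: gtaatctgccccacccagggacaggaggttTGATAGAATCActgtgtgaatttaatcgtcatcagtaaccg
Zscan4f: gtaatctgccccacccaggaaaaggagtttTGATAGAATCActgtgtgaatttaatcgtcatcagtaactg

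Over the 250 upstream bases these 4 genes were 83.6 to 94.8% identical in pairs. The capitalised match began 114 bases before the start in Zscan4c, 125 in Zscan4d and 91 in both Zscan4b and Zscan4f, and a TATAAA lay further down, at 54, 65, 31 and 31 bases before the start. This pattern, searched on both strands from 250 bases before to 50 after each start, was in these 4 of the 6 rule genes with a promoter and in 0.207% of all 32851 promoters. The stricter pattern of TGATT and AATCA with C between them, which mouse Dux is known to prefer, and the same with any 1 base between them were in none of the 6. The 4 matches are copies of 1 duplicated stretch and are not independent. A match is a description of the letters.

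The number of rule-gene UMIs per cell ran from 5 to 256, with a median of 28 and quartiles of 12 and 63.75, and a cell had between 1 and 11 of the rule genes with a median of 6. No gap set the 2-cell-like cells apart from the rest: 185 cells had 1 or 2 rule-gene UMIs and 21 had 3 or 4. Just below the threshold, 12 cells with 3 rule-gene UMIs had 3153 CPM of the other 2-cell genes described next and 9 cells with 4 had 2011 CPM. Just above it, 6 cells with 5 had 3448 CPM and 8 cells with 6 had 5053 CPM.

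The strongest difference from the comparison cells was in other genes of the 2-cell embryo. A list of genes known from the 2-cell stage, with the rule genes left out where they were on it, had 78 members measured in this library. This list was chosen with earlier results of these data known, so it is not independent of them. Together they came to 17495 CPM in the 2-cell-like cells and 151 CPM in the comparison cells, a 116-fold ratio. Of the 78 genes, 69 had a higher CPM in the 2-cell-like cells, 8 a lower one and 1 was at 0 in both. Nelfa, Ddit4l and Calcoco2, at 35.5, 44.6 and 35.2 CPM, gave most of the sum of the comparison cells. Some listed genes are relatives or neighbours of rule genes. Usp17lb lies near Usp17la on chromosome 7, and Gm21761 near Tcstv1 on chromosome 13. How many UMIs of such genes came from rule genes was not tested, so the sum is not fully separate from the rule.

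Read per cell, the listed genes ran from 1.59 to 1443 UMIs per 10000 in the 2-cell-like cells, with a median of 167. In the comparison cells they ran from 0 to 77.8, with a median of 1.13. The 2 ranges overlapped, but 123 of 130 2-cell-like cells were above the 99th percentile of the comparison cells (9.80) and 88 were above the highest of them. None of the 130 was without a listed UMI, while 868 comparison cells had none. Across the 130 cells the listed UMIs went with the rule-gene UMIs, both per 10000 (Spearman's rho 0.854). Both measures share each cell's depth and library, and cells of 1 library are not replicates.

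**Figure D3:**
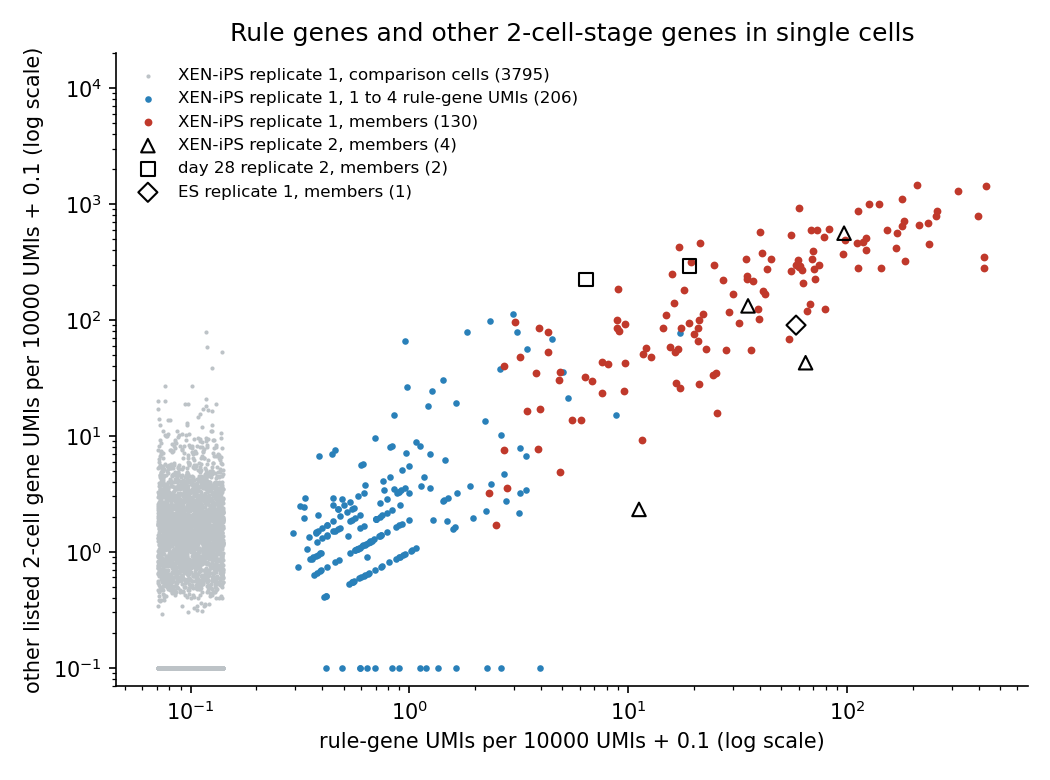
Rule-gene UMIs and UMIs of the other listed 2-cell genes, both per 10000 UMIs plus 0.1 on log axes, for single cells: the 130 2-cell-like cells (red, named members in the plot), 206 cells with 1 to 4 rule-gene UMIs (blue) and 3795 comparison cells (grey, spread sideways for display) of XEN-iPS replicate 1, and the 7 2-cell-like cells of other libraries (open symbols). Among the red points, cells with more rule-gene UMIs also had more UMIs of the other listed genes (rho 0.854).

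Across all genes with at least 25 UMIs seen or expected in the 2-cell-like cells, rule genes left out, 393 of 5568 were at least 2-fold higher in these cells (7.06%) and 328 at least 2-fold lower (5.89%). The median gene had a log2 fold of -0.19, and folds near 1 are to be read beside it. Of the higher genes, 227 were at least 4-fold and 132 at least 16-fold higher, while 20 genes were at least 4-fold lower. The 393 genes made up 4.79% of the UMIs of the 2-cell-like cells and 0.593% of those of the comparison cells. Of the 5568 genes, 558 passed the minimum only through their level in the 2-cell-like cells, and such a gene had to be higher to be counted. Of the 78 listed 2-cell genes, 41 passed, of which 40 were at least 2-fold higher and Calcoco2 lay between, but all except 3 passed only in this way, so the counts are no support by themselves.

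The largest single amounts came from predicted genes on chromosomes 12 and 13. Gm21761 on chromosome 13 had 5156 UMIs in the 2-cell-like cells and 145 in the 3795 comparison cells, 3277 against 2.22 CPM, a 1477-fold ratio (1252 to 1754). Gm8300, a relative of the translation initiation factor eIF1A on chromosome 12, had 4770 against 216 UMIs, 3032 against 3.31 CPM, a 917-fold ratio. Thinned to 3000 UMIs, which left out shallower cells, 85.1% of 114 2-cell-like cells and 0.863% of 3362 comparison cells had a UMI of Gm8300. Both genes were thus in most 2-cell-like cells and close to absent from the comparison cells, which the rule kept free of rule-gene UMIs. Cells with 3 or 4 rule-gene UMIs, which are on neither side, had 350 CPM of Gm8300 and 580 CPM of Gm21761. No 2-cell-like cell gave over 8.09% of the UMIs of either gene in these cells. Gm5662, of the same eIF1A-like family, stood at 1959 against 1.78 CPM (1103-fold). Gm4027 stood at 1089-fold, Gm5039 at 1777-fold, and Gm8332 at 2721-fold (1735 to 4535) with 1245 against 19 UMIs. Levels are compared here per UMI and not per length, since these are 3′ counts.

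Gm4340 had 780 UMIs against 15, a 2160-fold ratio (1301 to 3877), and GM2046 had 588 against 12. At lower levels, Gm21731 had 197 UMIs against 1, a ratio of 8181 with a counting interval of 1451 to 324766. Such an interval shows how little a single UMI fixes. B020031M17Rik (120 against 1 UMI), Gm8953 (117 against 1), Usp17lb (83 against 1) and Gm428 (45 against 1) were of the same kind. Gm12800 had 251 against 4 UMIs, Gm20767 92 against 2 and Gm10696 137 against 3. BC147527 and Gm2056, with 646 and 645 UMIs against 20 each, complete the 15 highest ratios among genes of at least 20 CPM.

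Genes of the list with a known product were also higher. Sp110, a nuclear body protein, had 383 against 26 UMIs, a 612-fold ratio (411 to 949), and Tmem92, a membrane protein, 306 against 30 (424-fold, 291 to 639). Lmx1a, a homeodomain transcription factor, had 133 against 9 UMIs (614-fold) and Arg2, the mitochondrial arginase, 108 against 27 (166-fold). The deubiquitinating enzyme genes Usp17lc and Usp17ld had 440 against 18 UMIs (1015-fold) and 27 against 0, the latter at least 374-fold higher when 3 counts stand for the 0, with a lower counting limit of 284. Abcb5, a transporter, had 67 UMIs against 3, a ratio of 927 (304 to 4611), and Spz1, a transcription factor of sperm development, had 48 against 3, a ratio of 664 (214 to 3335). Usp17lc and Tmem92 were the most widespread of these, in 90 and 87 of the 130 cells, and Spz1 was in 25.

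Nelfa, a subunit of the negative elongation factor of RNA polymerase II that the comparison cells also expressed, stood at 1166 against 35.5 CPM, a 32.8-fold ratio (30.8 to 34.9). It was in 71.9% of the thinned 2-cell-like cells and in 10.1% of the thinned comparison cells. Ddit4l, an inhibitor of mTOR signalling, stood at 356 against 44.6 CPM (7.97-fold, 7.27 to 8.73). Both had levels in the 2-cell-like cells like those of the genes above, and the comparison cells had far more of them. Duxf3 itself was seldom caught: 26 UMIs in 22 of the 130 cells against 10 UMIs in all 3795 comparison cells, a 108-fold ratio (50.4 to 251).

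Levels of the listed genes climbed with the rule-gene UMIs in a cell. Their sum was 151 CPM in cells with none, 258 CPM with 1 or 2 and 2681 CPM with 3 or 4. It was 3808 CPM with 5 to 9, 10504 CPM with 10 to 29, 22352 CPM with 30 to 99 and 56831 CPM in the 13 cells with 100 or more. The sum was thus higher in each further group. Sp110 followed the same course from 0.398 CPM in cells with none to 615 CPM in cells with 100 or more, and Gm8300 from 3.31 to 10417 CPM. Cell depth did not climb with it: the median was 16725 UMIs in cells with none and 10074 in the 13 highest. The listed genes and the rule genes are counted in the same cells, so this is a description of 1 library.

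**Figure D4:**
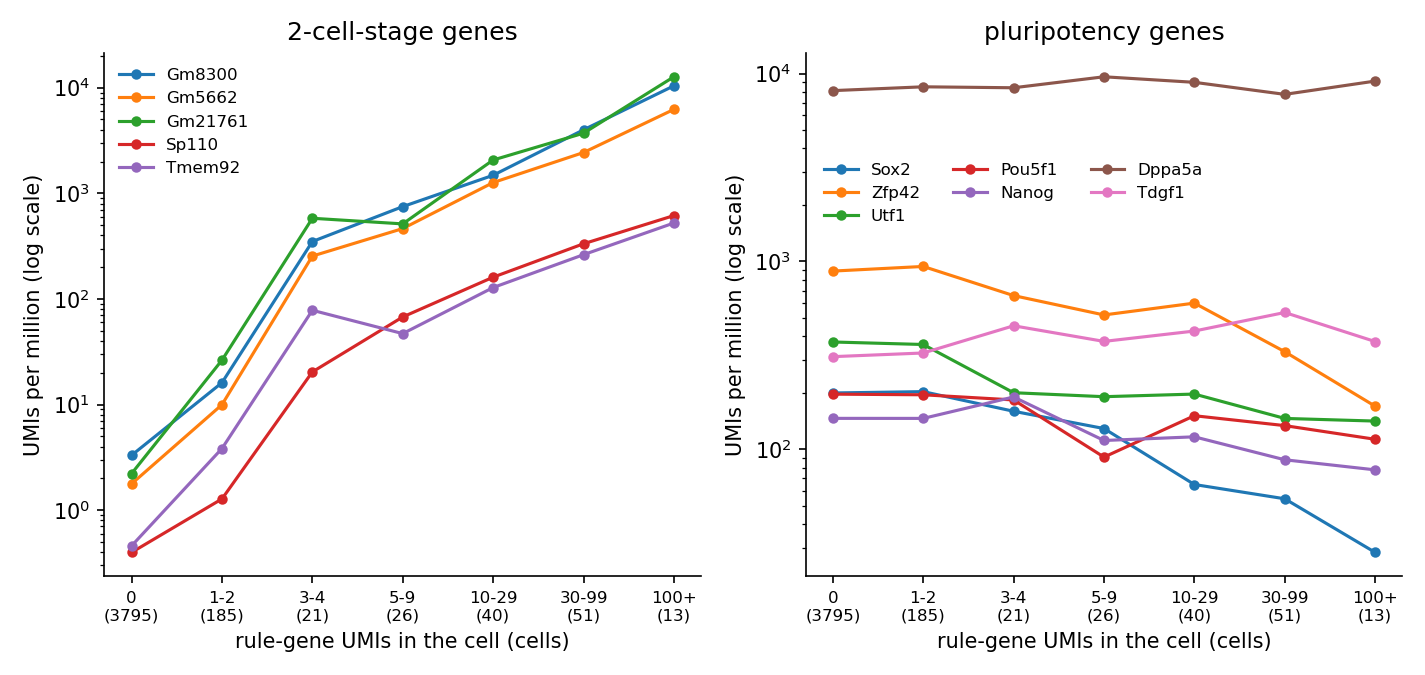
Level in CPM (log scale) of 5 listed 2-cell genes (left) and 7 pluripotency genes (right) in cells of XEN-iPS replicate 1 grouped by rule-gene UMIs; the number of cells in each group is in parentheses. Sp110 reached 615 CPM in the highest group, while Sox2 went from 199.6 CPM in cells with none to 28.3 CPM.

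Some of the highest genes lay side by side. Of the 132 genes at least 16-fold higher, 128 could be placed on GRCm38, and 46 of these were within 1 Mb of another, for which no value without clustering was computed. The largest group was 10 genes on chromosome 12 (chr12:87514316-88324026), among them Gm8300, Gm4027, Gm2016, Gm8332, Gm5662 and Gm5039, with 14161 UMIs in the 2-cell-like cells against 548 in the comparison cells. The next was 8 genes on chromosome 13 (chr13:119836006-120308779), among them Gm21761, AF067061 and BC147527, with 7587 against 229 UMIs. Tcstv1 lies inside this second stretch and Tcstv3 just beyond its end. Chromosome 4 held a group of 4 around Gm12800 (chr4:101834969-101981049) and a group of 3 with BC080695, Gm13078 and Gm13119 (chr4:143551700-144364419). Of the 132 genes, 33.3% had a provisional Gm name, against 1.60% of all 5568, and 38 were on the list of 2-cell genes. A gene passed the minimum on the comparison cells only from 15.9 CPM there. The Gm genes named in this paragraph stood at 3.31 CPM or less there and entered only through the 2-cell-like cells. The contrast of the 2 shares is thus set in part by the minimum. Reads of neighbouring copies cannot be assigned with certainty, so the sums of a cluster are firmer than its single genes.

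Of the 132 genes, 71 had a promoter in RefSeq, and the pattern with 2 free bases was in 1 of them, Abcb5 (chr12:118966457-118966527, minus strand), shown to compare with the Zscan4 genes above. The match, in capitals, began 76 bases before the start.
Abcb5: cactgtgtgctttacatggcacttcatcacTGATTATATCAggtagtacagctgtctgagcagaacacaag
The Abcb5 bases around the match did not share the stretch of the Zscan4 genes. TGCACAC, as a plain word, was in 8 of the 71 promoters (4.396% of all promoters) and TATAAA in 12 (13.6% of all promoters), Usp17lb, Usp17lc and Usp17ld among them. Most of the predicted genes of chromosomes 12 and 13 had no promoter in this table.

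Among known regulators of the state, 33 passed the minimum, of which 2 were at least 2-fold higher and 4 at least 2-fold lower, beside 7.06% and 5.89% of all genes, with a median log2 fold of -0.24 beside -0.19 for all genes. Dppa2, which acts upstream of Dux, had 1470 UMIs, 934 against 97.7 CPM, a 9.56-fold ratio (9.03 to 10.1), and was in 78.9% of the thinned 2-cell-like cells against 25.8%. Duxf3 was the other higher one, which passed only through its level in the 2-cell-like cells. Dppa4, also on this list, was not among the genes at least 2-fold higher. Of the repressors, Ehmt2 stood at 10.8 against 34.3 CPM, 3.17-fold lower (1.98 to 5.46), and Lin28a at 7.63 against 33.1 CPM, 4.35-fold lower (2.48 to 8.42). The Lin28a value rests on 12 UMIs in 8 of the 130 cells. Tet2, which oxidises methylated DNA, was 2.13-fold lower (1.31 to 3.74), and Max, the partner of MYC and MGA, was 2.14-fold lower. Ncl, the nucleolar repressor, was 1.27-fold lower (1.21 to 1.33), within the 2-fold limit. Sumo2, whose protein marks repressors for their work, stood at 718 against 1285 CPM, 1.79-fold lower.

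Pluripotency genes differed one by one. Of 34 that passed the minimum, 2 were at least 2-fold higher and 6 at least 2-fold lower, beside 7.06% and 5.89% of all genes, and the median log2 fold was -0.24. Sox2, a core transcription factor of pluripotency, stood at 71.8 against 199.6 CPM, 2.78-fold lower (2.31 to 3.37), and was in 14.9% of the thinned 2-cell-like cells against 41.6%. Tcl1, a co-activator of the kinase AKT, was 2.86-fold lower (2.07 to 4.07), Gdf3, a secreted growth factor, 2.57-fold lower (2.06 to 3.24), Fgf4 2.25-fold lower (1.48 to 3.60) and Utf1, a chromatin factor, 2.16-fold lower (1.92 to 2.45). In thinned cells, Gdf3 was in 4.39% of the 2-cell-like cells against 30.9%, Fgf4 in 0.877% against 9.55% and Utf1 in 31.6% against 60.4%. These shares weigh each cell equally, while the sums weigh deeper cells more. Zfp42 (REX1) stood at 447 against 889 CPM, 1.99-fold lower (1.85 to 2.15), just inside the 2-fold limit.

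Other pluripotency genes differed less. Pou5f1, which encodes OCT4, stood at 128 against 197 CPM, 1.53-fold lower (1.33 to 1.77), and Nanog at 102 against 146 CPM, 1.44-fold lower (1.23 to 1.69). Dppa5a, the most abundant of them, stood at 8690 against 8116 CPM (1.07-fold), and Tdgf1, a co-receptor of Nodal, at 450.0 against 311 CPM (1.44-fold higher, 1.34 to 1.56). Fbxo15, a target of OCT4 and SOX2, was 8.73-fold higher (7.89 to 9.65) and Dppa3, a maternal factor known to guard DNA methylation in the zygote, 1.88-fold higher (1.72 to 2.06). The share of thinned cells with a Dppa3 UMI was alike, at 29.8% of the 2-cell-like and 29.5% of the comparison cells. Pou5f1, Nanog and Sox2 were thus all lower, Sox2 by the most, and UMIs of all 3 were still found, Sox2 in 44 of the 130 cells.

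By the rule-gene UMIs in a cell, Sox2 stood at 199.6 CPM in cells with none, 203 CPM with 1 or 2 and 159.5 CPM with 3 or 4. It was lower in each further group, at 129 CPM with 5 to 9, 65.0 CPM with 10 to 29, 54.6 CPM with 30 to 99 and 28.3 CPM in the 13 cells with 100 or more, where it rested on 4 UMIs. Zfp42 was 889 CPM in cells with none, 941 CPM with 1 or 2, 658 CPM with 3 or 4 and 170 CPM with 100 or more. Sox2 and Zfp42 were thus about level up to 2 rule-gene UMIs and lowest in the last group. Nanog was 146 CPM in cells with none, highest at 190.0 CPM with 3 or 4 and lowest at 77.8 CPM with 100 or more. Pou5f1 went from 197 to 113 CPM between the first and the last group, with its lowest value, 90.9 CPM, in the cells with 5 to 9. Dppa5a stayed between 7753 and 9617 CPM over all groups, with no order.

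**Figure D5:**
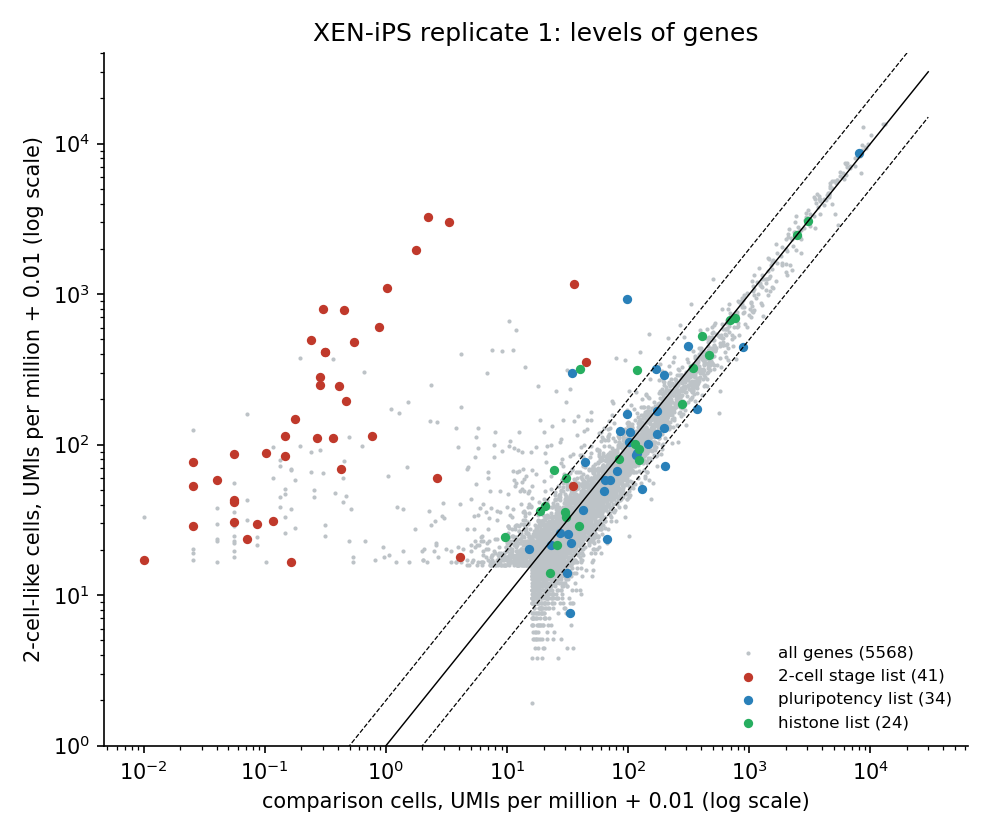
Level of each of 5568 genes in the comparison cells (horizontal) and the 2-cell-like cells (vertical) of XEN-iPS replicate 1, in CPM plus 0.01 on log axes, with the lines of equal level (solid) and of 2-fold difference (dashed). Listed 2-cell genes (red) lie above the upper dashed line except Calcoco2, with Gm8300 at 3032 against 3.31 CPM, while most of the pluripotency (blue) and histone (green) genes lie between the dashed lines.

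Among germline genes, Dazl, an RNA-binding protein of germ cells, stood at 56.6 against 13.2 CPM, a 4.30-fold ratio (3.42 to 5.35), with 89 UMIs in 45 of the 130 2-cell-like cells. By rule-gene UMIs it stood at 13.2 CPM in cells with none, 9.97 CPM with 1 or 2, 30.5 CPM with 3 or 4, 46.9 CPM with 5 to 9, 45.9 CPM with 10 to 29, 73.9 CPM with 30 to 99 and 49.5 CPM with 100 or more, the last on 7 UMIs. It was thus higher from 3 rule-gene UMIs on. Sycp1, of the synaptonemal complex, was 3.96-fold higher (2.83 to 5.42) on 43 UMIs, and Tex19.1 stood at 161 against 98.5 CPM (1.63-fold, 1.43 to 1.85). Rhox5 was the most abundant, at 219.9 against 229 CPM. Of 27 germline genes, 6 passed the minimum, 4 of them on their level in the comparison cells. Dazl and Sycp1 were the 2 at least 2-fold higher, beside 7.06% of all genes. At 13.2 and 6.90 CPM in the comparison cells, both passed only through their level in the 2-cell-like cells. Their being higher was thus fixed by the minimum.

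Of the histone genes and histone chaperones, 24 passed, 4 were at least 2-fold higher and 0 lower, beside 7.06% and 5.89% of all genes. Hist1h4i, a histone H4 gene, stood at 317 against 40.1 CPM (7.89-fold, 7.16 to 8.69), Hist1h1c, a linker histone, was 2.74-fold higher (2.23 to 3.34), Hist1h2bc 2.63-fold (2.40 to 2.88) and Hist1h4d 2.53-fold (1.77 to 3.50). Of these, Hist1h4d, at 9.57 CPM in the comparison cells, passed only through its level in the 2-cell-like cells. Among 23 p53 targets that passed, 3 were at least 2-fold higher and 3 lower. Pmaip1 (NOXA) was 3.19-fold and Rrm2b 4.64-fold higher, though 1 cell gave 31.0% of the Rrm2b UMIs. At 14.9 and 11.9 CPM in the comparison cells, Pmaip1 and Rrm2b also passed only through their level in the 2-cell-like cells. Cdkn1a (p21) was 1.62-fold lower (1.40 to 1.87), Gadd45a 2.56-fold lower (1.93 to 3.46) and Gadd45g 4.66-fold lower (2.13 to 12.7). The median log2 fold of the p53 targets was -0.19, as for all genes.

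Few genes of the general machinery of the cell passed 2-fold, beside 7.06% and 5.89% of all genes in each direction. Of 84 ribosomal protein genes, 1 was at least 2-fold higher, Rpl39l, a germ-cell form of a ribosomal protein (2.51-fold, 2.10 to 2.98), and the median log2 fold was 0.07, with 80 of the 84 above the median of all genes. Among 30 translation factors, 37 proteasome and ubiquitin genes, 17 glycolysis genes and 13 mitochondrially encoded genes, 0 passed 2-fold in either direction, though 13 of the 13 mitochondrially encoded genes lay above the median of all genes. In the nucleolus and ribosome biogenesis, 2 of 30 were at least 2-fold lower, Wdr12 (2.15-fold, 1.67 to 2.81) and Polr1b (2.34-fold, 1.30 to 4.70), and the median log2 fold was -0.36, with 8 of 30 above the median of all genes. Among 37 spliceosome genes, Rbm25, a splicing regulator, was 2.62-fold higher (2.48 to 2.77) and the median was -0.18. The 27 genes of G2 and M phase had a median log2 fold of 0.01 with none past 2-fold. The 27 genes of G1 and S phase had a median of -0.33, with Orc1 2.15-fold higher (1.54 to 2.93), though it passed only through its level in the 2-cell-like cells, and cyclin D2 (Ccnd2) 5.35-fold lower (2.90 to 11.2).

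Counts of the next lists are to be read beside 7.06% higher and 5.89% lower among all genes. DNA methylation genes gave 1 of 12 in each direction, with Mbd4, a DNA glycosylase, 2.47-fold higher (1.64 to 3.59) and Tet2 lower as above. Mbd4, at 7.47 CPM in the comparison cells, passed only through its level in the 2-cell-like cells. Of the stress genes, Hspa1a (HSP70) was 22.5-fold higher on 33 UMIs, but 1 cell gave 60.6% of them and it too passed only through the 2-cell-like cells. Ddit4 was 2.06-fold higher (1.65 to 2.54) and the immediate early gene Ier2 2.03-fold lower (1.72 to 2.40). Of the formative and germ-layer genes, 6 passed, with 2 higher and 1 lower. Krt18 was 5.06-fold and Krt8 2.18-fold higher, yet 1 cell gave 83.0% of the Krt18 and 76.8% of the Krt8 UMIs, and Tfap2c was 2.75-fold lower (1.74 to 4.66). These keratin values describe a single cell rather than the group.

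The lowest ratios among genes of at least 20 CPM were of sparse genes. Lce1g, of the cornified envelope, had 7 UMIs in the 2-cell-like cells and was 7.83-fold lower (3.79 to 19.5), Psors1c2 7.07-fold lower (3.42 to 17.6) and smooth muscle actin Acta2 6.93-fold lower (3.18 to 18.9). Foxp1, a forkhead transcription factor, was 4.67-fold lower (2.36 to 10.8), Opa3 4.54-fold, Bgn (biglycan) 4.29-fold and Capn15 4.23-fold lower. Ccnd2 and Lin28a, given above, were also among them. Acta2 and Bgn are also genes of fibroblasts, and the fibroblast markers summed to 24.8 CPM in the 2-cell-like cells and 33.2 CPM in the comparison cells. The part of feeder cells in the Acta2 and Bgn values was not tested.

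Of the marker lists of other cell types, that of trophoblast alone had a higher sum in the 2-cell-like cells, and this rested on 1 cell. The 12 endoderm markers summed to 82.0 CPM against 159.5 CPM in the comparison cells, from 0 to 37.6 per 10000 UMIs in single cells. Pdgfra, Cubn and Sox7 were at 0 and 9 of 12 had any UMI. Of the 129 endoderm UMIs, 1 cell gave 53, and without it the sum was 48.7 CPM. Of 11 fibroblast markers, 8 had a UMI and Col3a1, Postn and Lum were at 0, with 0 to 7.01 per 10000 UMIs in single cells. Trophoblast markers, 9 measured, summed to 237 against 97.3 CPM with Elf5 at 0, and 1 cell, at 107 per 10000 UMIs, gave 259 of the 373 UMIs. Without it the sum was 73.6 CPM, below that of the comparison cells. Beside Krt18 and Krt8, Krt7 was 3.64-fold higher (2.51 to 5.12), with UMIs in 18 of the 130 cells and 27.8% of them from 1 cell. At 6.29 CPM in the comparison cells, Krt7 passed the minimum only through its level in the 2-cell-like cells, so that its being higher was fixed. The part of trophoblast-like RNA in other results was not tested. Genes of differentiating cells summed to 61.0 against 67.6 CPM. The 10 pluripotent markers summed to 10162 against 10436 CPM, all 10 with a UMI, with up to 315 per 10000 UMIs in single cells, against up to 374 in the comparison cells. Dppa5a alone gave 8690 and 8116 CPM of these sums, so their closeness rests on this gene.

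Measures of the whole cell were close on both sides. At 3000 UMIs per cell, the median 2-cell-like cell had 1112 genes and the median comparison cell 1181. The mitochondrially encoded share of UMIs had a median of 2.69% against 2.19%, and ribosomal protein genes took 38.2% against 36.0%. In the other libraries with 2-cell-like cells, few in each, the ribosomal share went the other way. The 2-cell-like minus the comparison cells gave -1.57 percentage points in XEN-iPS replicate 2, -2.62 in ES replicate 1 and -9.36 in day 28 replicate 2. Of the UMIs of both phase lists, 72.2% were of G2 and M genes in the 2-cell-like cells and 65.9% in the comparison cells.

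The 2-cell-like cells also differed among themselves. The 32 with a Zfp352 UMI had 20674 CPM of the listed 2-cell genes and the 98 without had 16632 CPM. Those with Zfp352 also had more rule-gene UMIs, with a median of 40 against 25.5. A minimum of 25 UMIs seen or expected in the cells with Zfp352 left 1678 genes. Of these, 46 (2.74%) were at least 2-fold higher with Zfp352 and 26 (1.55%) at least 2-fold lower. A gene that passed only through the cells with Zfp352 had to be higher, which favours the first count. The highest ratios were of Spz1 (77.5 against 17.8 CPM, 4.36-fold, 2.37 to 8.07), AI838599, Fundc1, a mitophagy receptor (596 against 150 CPM, 3.96-fold, 3.23 to 4.87), Gm26870 (3.95-fold) and Abcb5 (3.58-fold, 2.15 to 5.95). Single cells weighed on some of these, as 1 cell gave 71.8% of the AI838599 UMIs and 40.4% of the Gm26870 UMIs of the Zfp352 side. Spz1, AI838599 and Abcb5 also passed the minimum only through the cells with Zfp352, so that their being higher was fixed. At the other end stood Snhg12 (3.95-fold lower), Arl4d (4.75-fold lower, 2.11 to 13.2), Dlg1, Krt18 and H19. Of these, Snhg12, Dlg1, Krt18 and H19 had 51.9 to 84.1% of the UMIs of the side without Zfp352 from 1 cell, and without that cell Snhg12 stood at 52.6 CPM there against 26.8 CPM with Zfp352.

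Tcstv3 split the cells more widely. The 55 with a Tcstv3 UMI had 27949 CPM of the listed genes and the 75 without had 10511 CPM, and Sp110 stood at 506 against 67.8 CPM. Zfp42 stood at 289 CPM with Tcstv3 and 552 CPM without, and Sox2 at 47.6 and 88.0 CPM. Depth was alike, with medians of 10074 and 10277 UMIs. Tcstv3 is a rule gene, and cells with a UMI of it also had more rule-gene UMIs (median 47 against 19), so the split follows in part the order already described.

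The 7 cells of the other libraries were looked at 1 by 1. In XEN-iPS replicate 2, cells with 100, 85 and 36 rule-gene UMIs had 66, 491 and 135 UMIs of the other listed genes, and the first of them also had 28 collagen UMIs. The remaining cell had 5 Usp17la UMIs, no Zscan4 UMI and 1 listed UMI among 4507. In day 28 replicate 2, the cells had 15 and 11 rule-gene UMIs, of which Zfp352 gave 11 and 7, with 230 and 386 listed UMIs. The ES cell had 48 rule-gene UMIs, 43 of them of Zscan4 genes, and 74 listed UMIs. Per 10000 UMIs, 6 of the 7 had 42.6 to 559 UMIs of the other listed genes, and the cell with Usp17la alone had 2.22.

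Read together, these 7 cells had 72594 UMIs. Their Gm8300 UMIs were 239 where the comparison cells of their libraries would give 0.0151, and their Dppa2 UMIs 77 against 2.88. For the day 28 cells, these comparison cells included many with Gata6 RNA, as given at the start. Sp110 had 109 UMIs, 94 of them in the 2 day 28 cells. Sox2 had 0 UMIs in all 7 where 14.4 would be given, and Zfp42 12 where 67.0 would. Pou5f1 had 11 against 23.4 and Nanog 4 against 7.16. Some genes went the other way than in XEN-iPS replicate 1. Fgf4 had 7 against 2.35, Foxp1 7 against 2.59 and Bgn 41 against 6.16, all 41 in XEN-iPS replicate 2, while Tdgf1 had 2 against 11.5 and Dppa3 3 against 5.63. Of the 393 genes at least 2-fold higher in XEN-iPS replicate 1, 331 were above the level of the comparison cells in these 7 cells, against 2416 of all 5568, and 47 were at 0. Of the 328 lower genes, 306 had at least 1 UMI to be given, and 214 of these were below it, against 3025 of 5053 among all genes, a share only somewhat larger. These 7 cells were not used to choose the 393 and 328 genes, but they were chosen by the same rule genes.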

How the data were processed

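Single cells were captured with 10x Genomics 3′ chemistry. The authors aligned the reads to mouse mm10 (GRCm38) with SEQC, resolved multi-mapping reads, and removed cells with over 20% mitochondrial RNA or low complexity. From their XEN-to-iPS data they also removed a cluster with a 2-cell-stage signature, as likely spontaneously differentiated cells. Another cluster with a fibroblast signature was removed as likely feeder cells. Which cells those clusters held is not given, and the deposited counts used here still held 2-cell-like cells. The deposited values are counts of UMIs per gene and cell, 1 table per library, not normalized. No doublet caller was run here. The 2-cell-like cells, the gene lists and the comparisons were chosen with earlier results of these data known.

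UMIs were summed over the cells of each side within a library and scaled to the total (CPM). Folds are ratios of CPM with exact conditional 95% intervals, and shares have exact binomial 95% intervals. A count of 0 was given the limit of 3 counts. A test over libraries by edgeR had been planned for libraries with at least 10 2-cell-like cells, but 1 library had so many. A fit over 4 libraries with at least 1 such cell was tried and not used, since simulated counts with no changed gene gave 56 calls among 14203 genes under TMM scaling and 248 under scaling to totals. A sign-flip test over 4 libraries cannot give a p below 0.125 and was not run. The planned test between conditions could not be fitted either.

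Named genes were the rule genes, the 15 highest and 10 lowest ratios of genes with at least 20 CPM on the higher side, up to 4 past 2-fold and 3 of the most abundant others from each list, the 5 highest and lowest of the Zfp352 comparison, and Dazl and Duxf3. Their planned condition of the same direction in every library was dropped. One of the lowest is not reported here. Other genes named in the text, such as AF067061, Tmem92, Gm5662, Gm2016, Gdf3, Max and the Tcstv3 comparison, were chosen after their values were seen. The rule for the ratios was tested on simulated counts of 5273 genes: all 200 changed genes passed 2-fold, 5 unchanged ones did, and 95.0% of intervals held the true value. The simulated counts held counting error only, so this check cannot speak to the spread between cells. Thinning drew 3000 UMIs from each cell without replacement and left out cells with fewer, which kept 114 of 130 2-cell-like and 3362 of 3795 comparison cells of XEN-iPS replicate 1. Genes were placed with GENCODE (GRCm38), and promoters came from RefSeq (GRCm38.p6). Of the 5 patterns searched, the one with 2 free bases was chosen after the stricter ones gave no match. Alternatives changed the threshold, the filter, the scaling and the cells on either side. Leaving out the cell with most UMIs of a marker list or of Snhg12 was chosen after seeing the data.

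Python 3.11.15, numpy 2.4.6, scipy 1.17.1, pandas 2.3.3, Biopython 1.88, matplotlib 3.10.9, R 4.3.3 and edgeR 4.0.16 were used.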

Additional observations from a re-analysis of the deposited data

Results flagged for a closer look

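A cell of XEN replicate 2, an endoderm library, had 6 rule-gene UMIs and 57 UMIs of the other listed 2-cell genes among 6061 UMIs, with 0 UMIs of the pluripotent markers and 4 of the endoderm markers. A cell of 9h replicate 1, from the ES to iXEN conversion, had 7 Zfp352 UMIs and 37 listed UMIs among 28817, with 323 UMIs of the pluripotent markers. Both lie in libraries outside the comparisons above, and their listed UMIs came to 94.0 and 12.8 per 10000, where the median comparison cell of XEN-iPS replicate 1 had 1.13.

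Genes detected at 3000 UMIs per cell went one way in XEN-iPS and the other way elsewhere. The median of the 2-cell-like cells minus that of the comparison cells was -69 genes in XEN-iPS replicate 1 and -136.5 in XEN-iPS replicate 2, 47 in ES replicate 1 and 5.5 in day 28 replicate 2. The mitochondrially encoded share differed by -0.30 percentage points in ES replicate 1 and by 8.72 in day 28 replicate 2, where the 2 cells had a median of 12.05% against 3.33%. These values rest on 130, 4, 1 and 2 2-cell-like cells, and the difference between conditions was not tested.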

How the results depend on the processing

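The counts of 393 genes at least 2-fold higher and 328 lower in XEN-iPS replicate 1 stayed within 1.5 times under several changes. These were a threshold of 10 rule-gene UMIs (365 and 306) or 3 (413 and 246), and RLE (431 and 249) or TMM scaling (433 and 243). High-UMI, endoderm or collagen-bearing cells were also left out in turn, as were cells with under 1000 genes. Another change left out comparison cells below the 25th percentile of UMIs of the 2-cell-like cells (391 and 318). It raised the median of the comparison cells to 18686 UMIs and so did not match depth. Scaling by TMM moved every log2 fold by 0.09 and kept 243 of the 328 lower genes past 2-fold. With every cell thinned to 3000 UMIs, 163 were higher and 135 lower among the 1876 genes left, of which 147 and 42 were among the 393 and 328. With no filter on low counts, 7331 were higher and 1433 lower among 19226 genes. The share of 2-cell-like cells in XEN-iPS replicate 1 was 2.44% at 10 or more rule-gene UMIs. At 3000 UMIs per cell, 4.16% of its cells and 0.227% of those of XEN-iPS replicate 2 kept any rule-gene UMI. Of 1080 values of 102 named genes under the alternatives, 948 stayed within the counting interval, 132 moved, 4 of them to the opposite sign of a value near 0 (H3f3b, Rhox5 and Cks2), and 0 past the 2-fold limit on the other side. For the gene counts, the threshold of 3 and the TMM scaling were chosen after seeing the data.

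No paired analysis was possible because the reported folds come from 1 library with no test, which holds for these folds alone. Since only this library held at least 10 2-cell-like cells, leaving out a library, fitting the ES and XEN-iPS libraries alone, DESeq2, the test between conditions and a test of the Zfp352 split were not run. Over the 4 libraries with at least 1 such cell pairing was possible, and a paired edgeR fit was run. It gave 423 higher and 31 lower genes with the replicate block and 277 and 14 without it, and was set aside for its false calls on simulated counts. The other libraries held 0 to 4 2-cell-like cells each, so what they add rests on few cells.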
